A study of Homo sapiens with 6 samples.

Results

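Among the enzymes that make serine and pass its carbon into the folate cycle, siGRAMD1B-treated cells had less PSAT1 mRNA than siControl-treated cells in every setting tried, and less SHMT2 mRNA by a call that held in 6 of 16 alternative settings. The genes considered were PHGDH, PSAT1, PSPH, SHMT1, SHMT2, MTHFD1, MTHFD1L, MTHFD2 and ALDH1L2. They were chosen by name, as all probes that the platform annotation assigns to these symbols, which gave 13 of the 47231 probes on the array for 9 genes. The cells were HeyA8-MDR, which were derived from HeyA8, a human ovarian cancer line, and resist several drugs, and both groups carried an siRNA. In 3 arrays (replicates 1, 2 and 4) the siRNA was a control (siControl), and in 3 arrays (replicates 2, 3 and 4) an siRNA against GRAMD1B (siGRAMD1B), which encodes a sterol transfer protein of the endoplasmic reticulum. Neither the dose of the siRNA nor the time of harvest is given in the sources used here, and the groups come from 1 cell line. Nothing in the labels ties an array to its own culture. The p-values therefore rest on array-to-array spread alone, and part or all of that spread may be technical.

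Serine is made from the glycolytic intermediate 3-phosphoglycerate by PHGDH, which oxidises it, PSAT1, which transfers an amino group from glutamate, and PSPH, which removes the phosphate. The hydroxymethyltransferases SHMT1 (cytosol) and SHMT2 (mitochondria) then split serine into glycine and a carbon unit bound to tetrahydrofolate. In mitochondria MTHFD2 oxidises this unit and MTHFD1L releases it as formate, while ALDH1L2 can release it as carbon dioxide. In the cytosol MTHFD1 carries the unit between its oxidation states for the synthesis of purines and thymidylate. Several of these genes are known targets of ATF4, the transcription factor of the amino acid response, and rapidly dividing tumour cells often express them strongly.

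Sequence upstream of the start site is shown for PSAT1, which fell, for PHGDH, the step before it, and for MTHFD2, which stood lower without passing. RefSeq promoter windows (GRCh38.p14, from 250 bases before to 50 bases after a transcript start) were at hand for 6 of the 9 genes, leaving out PSPH, SHMT2 and ALDH1L2. The 250 bases before the start are printed for PHGDH, PSAT1 and MTHFD2, all on the plus strand, with CCAAT boxes (CCAAT) and GC boxes (GGGCGG) in capitals wherever they occur on either strand. PHGDH lies at chr1:119711684-119711933, PSAT1 at chr9:78296875-78297124 and MTHFD2 at chr2:74198365-74198614. For MTHFD1L, the 30 bases at chr6:150866346-150866375 on the plus strand hold a match to the core shared by ATF4 and C/EBP composite elements (TGATGNAA), in capitals.
PHGDH: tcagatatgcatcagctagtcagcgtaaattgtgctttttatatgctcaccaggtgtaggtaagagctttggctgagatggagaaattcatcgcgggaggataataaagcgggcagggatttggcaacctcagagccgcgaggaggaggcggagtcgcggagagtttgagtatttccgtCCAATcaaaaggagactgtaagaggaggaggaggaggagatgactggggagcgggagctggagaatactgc
PSAT1: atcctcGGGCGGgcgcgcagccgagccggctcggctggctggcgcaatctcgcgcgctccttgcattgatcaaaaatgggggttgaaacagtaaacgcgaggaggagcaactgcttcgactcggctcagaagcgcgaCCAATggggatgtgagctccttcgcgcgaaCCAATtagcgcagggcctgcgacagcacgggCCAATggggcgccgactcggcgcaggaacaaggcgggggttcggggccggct
MTHFD2: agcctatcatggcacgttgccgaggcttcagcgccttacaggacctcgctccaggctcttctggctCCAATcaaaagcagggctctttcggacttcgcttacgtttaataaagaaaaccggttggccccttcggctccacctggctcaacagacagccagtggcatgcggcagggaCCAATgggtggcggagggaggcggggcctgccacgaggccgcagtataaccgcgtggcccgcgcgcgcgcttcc
MTHFD1L: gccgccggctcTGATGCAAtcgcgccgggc

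The PSAT1 stretch held 3 CCAAT boxes, whose first bases lay 113, 83 and 52 bases before the start, and 1 GC box. MTHFD2 had 2 CCAAT boxes, at 184 and 74 bases before the start, and PHGDH had 1, at 71 bases. Over all 35116 windows in the RefSeq table, 34.6% held a CCAAT box, 45% a GC box, 7.26% an E-box (CACGTG) and 3.62% the ATF4 and C/EBP core, each searched on both strands. The core was found in windows of MTHFD1L and in none of the windows of PHGDH, PSAT1, MTHFD2, SHMT1 and MTHFD1. An E-box lay 15 bases before the MTHFD1 start and in the same MTHFD1L windows as the core. These matches describe the letters in the windows and say nothing of whether a factor binds there.

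All levels given here are log2 intensities after background correction and quantile normalization, on which the median of every array was 6.27, and all differences are siGRAMD1B minus siControl on that scale. The arrays had median raw intensities between 102.7 and 128.8, and 3 arrays a group is what limits precision. Levels of different genes are not compared, since each probe has its own brightness. The targeted gene, GRAMD1B, was read by 1 dim probe, at 6.42, 6.41 and 6.57 in siControl and 6.26, 6.23 and 6.17 in siGRAMD1B. No siGRAMD1B value reached the siControl range, but the difference of -0.25 ± 0.10 (SE) did not pass (limma adjusted p = 0.152, exact 2-sided permutation p = 0.10, the smallest that 3 arrays against 3 allow). Its raw intensities overlapped (110, 129 and 139 against 122, 126 and 105), and 11.8% of all tested probes were likewise separate and lower after normalization. Among the ovarian carcinoma and epithelial genes checked, PAX8 (means of 10.25 and 10.14 in siControl and siGRAMD1B) and KRT8 were bright. KRT18 was detected (8.20 and 7.91) and WT1 was dim (6.76 and 6.92), whereas EPCAM (6.42 and 6.23), MUC16, KRT19 and CDH1 lay near the floor. Of the mesenchymal genes, VIM and CDH2 were bright and FN1 was dim (6.68 and 6.73). CDH2 fell (12.69 to 12.31, limma adjusted p = 0.0227). Of 3 leukocyte genes, PTPRC and CD3E lay near the floor, while CD68, a lysosomal protein abundant in macrophages, was bright and rose (11.41 to 11.78, limma adjusted p = 0.0228). Of 3 endothelial genes, PECAM1 lay near the floor and CDH5 was clearly detected without passing (9.71 and 9.52). VWF had a mean of 6.12 in siControl, under the filter value of 6.16, and of 6.50 in siGRAMD1B. It was tested only through its siGRAMD1B level, and its limma adjusted p of 0.0333 carries that selection. The part of these genes in the results was not tested. In bulk RNA, fewer cells expressing a gene and less of its RNA per cell cannot be told apart.

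Of 28338 probes tested, 1101 were higher and 909 lower at a limma adjusted p under 0.05, which is 7.09% of those tested. Counts fell to 733 and 477 without siControl replicate 1 and to 686 and 489, 704 and 530, and 667 and 450 without siGRAMD1B replicates 2, 3 and 4. With a smaller background offset of 16, 65.7% of called probes were higher in place of 54.8%. Of the 13 probes of the serine and folate enzymes, 12 were bright enough to be tested, 2 were lower, 0 were higher and 10 did not pass (at an unadjusted p under 0.05, 3 were lower and 1 higher, against 9.57% lower and 10% higher, 19.6% in all, of tested probes). Over all tested probes 3.21% were lower and 3.89% higher, and among brightest probes per gene, the form used for gene counts, 3.72% were lower and 5.71% higher (9.43% in either direction). The groups did not overlap at 4 of the 12 probes, 3 of them lower and 1 higher, a share of 33.3% against 24.1% of all tested probes. With the brightest probe standing for each gene, the median difference over the 9 genes was -0.04, against 0.01 over all 14261 genes with a tested probe. Of the 9 genes, 2 were lower, 0 were higher and 7 did not pass, with 5 negative and 4 positive differences.

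**Figure D1:**
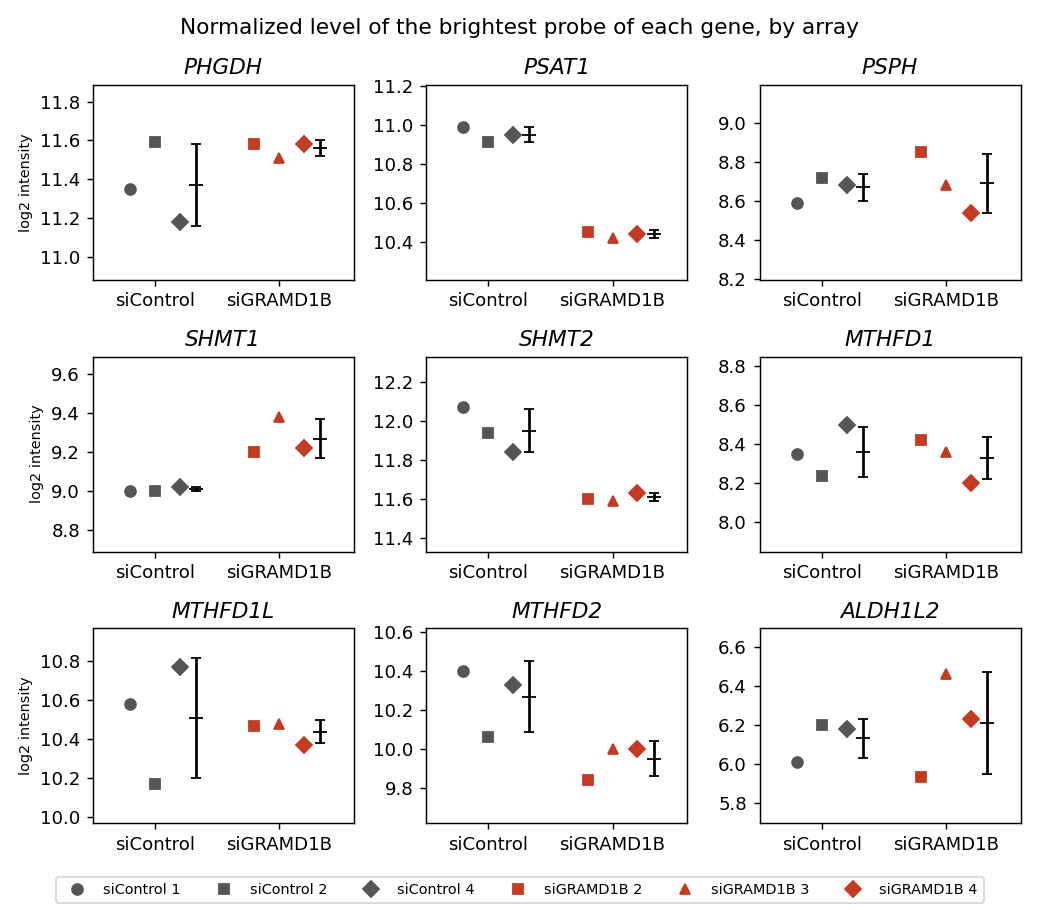
Normalized log2 intensity of the brightest probe of each of the 9 genes in every array. Grey symbols are siControl and red symbols siGRAMD1B, marker shapes give the replicate number, black bars show the group mean ± SD (n = 3), and each panel spans 1 log2 unit. For PSAT1, SHMT2 and MTHFD2 the red symbols sit wholly under the grey ones, and for SHMT1 wholly above them.

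PSAT1, the aminotransferase of serine synthesis, fell 1.43-fold. Its bright probe (ILMN_1692938) read 10.99, 10.91 and 10.95 in siControl replicates 1, 2 and 4 and 10.45, 10.42 and 10.44 in siGRAMD1B replicates 2, 3 and 4. The arrays within a group lay within 0.1 of each other and the groups were far apart. The means were 10.95 ± 0.04 and 10.44 ± 0.02 (SD, n = 3), with a log2 difference of -0.52 ± 0.10 (SE, 95% interval -0.71 to -0.32, limma adjusted p = 0.00222). In the raw intensities, before any normalization, siControl stood at 1841, 2013 and 2221 and siGRAMD1B at 1460, 1562 and 1231, so the groups were separate there too. The adjusted p stayed under 0.05 in all 16 alternative settings run, from 3.41e-04 on the deposited normalized table to 0.0472 with the replicate number as a block, and the difference lay between -0.55 and -0.48. A second PSAT1 probe (ILMN_1712563), assigned to another RefSeq transcript, lay at the floor with 5.97, 6.06 and 6.09 in siControl and 6.24, 6.03 and 6.06 in siGRAMD1B. That probe was too dim to be tested, and its groups overlapped.

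The enzymes before and after PSAT1 in the serine pathway did not pass. PHGDH, the dehydrogenase at the entry of the pathway, read 11.35, 11.59 and 11.18 in siControl, against 11.58, 11.51 and 11.58 in siGRAMD1B. The siControl arrays spread widely around the siGRAMD1B arrays, and siControl replicate 2 was the highest of all 6. The difference was 0.18 ± 0.11 (SE), with a 95% interval of -0.05 to 0.42 (limma adjusted p = 0.398). It was 0.29 without siControl replicate 2 and 0.09 without siControl replicate 4. PSPH, the phosphatase of the last step, differed by 0.02 at its brighter probe (95% interval -0.20 to 0.24, limma adjusted p = 0.942) and by -0.12 at its dimmer probe (95% interval -0.33 to 0.10, limma adjusted p = 0.604). The brighter PSPH probe read 8.59, 8.72 and 8.68 in siControl and 8.85, 8.68 and 8.54 in siGRAMD1B, with the siGRAMD1B arrays on both sides of siControl. PSPH has a pseudogene relative, PSPHP1, and the probe sequences were not used here, so cross-hybridization was not tested. Whether the change of PSAT1 differed from those of PHGDH and PSPH was not tested.

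**Figure D2:**
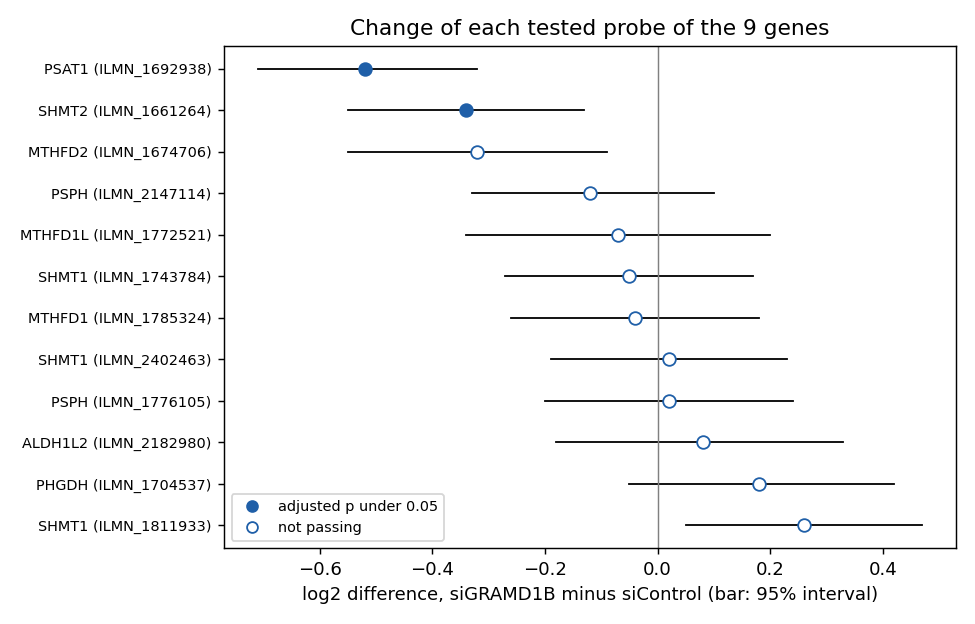
Log2 difference, siGRAMD1B minus siControl, of the 12 tested probes of the 9 genes, with 95% intervals from the limma fit; filled points have an adjusted p under 0.05 over all tested probes. PSAT1 at -0.52 and SHMT2 at -0.34 are the filled points, and the probes of PHGDH and SHMT1 at the other end reach 0.18 and 0.26 without passing.

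SHMT2, the mitochondrial hydroxymethyltransferase, fell 1.27-fold, close to the threshold. It read 12.07, 11.94 and 11.84 in siControl, against 11.60, 11.59 and 11.63 in siGRAMD1B. The siGRAMD1B values were tight and wholly under the siControl values, and the same held for the raw intensities, with 3846, 4164 and 4028 against 3153, 3399 and 2795. The means of 11.95 ± 0.11 and 11.61 ± 0.02 (SD, n = 3) gave a log2 difference of -0.34 ± 0.10 (SE, 95% interval -0.55 to -0.13, limma adjusted p = 0.0448). Its sign was the same in all 16 alternative settings, from -0.40 to -0.27, but it passed in only 6 of them. The call was lost without siControl replicate 1 (adjusted p = 0.190), siControl replicate 2 (0.0817) or siGRAMD1B replicates 2, 3 or 4 (0.133, 0.132 and 0.114), and it was kept without siControl replicate 4 (0.0278). Centring arrays on their medians instead of by quantiles gave an adjusted p of 0.0709, the offset of 16 gave 0.161, no filter on dim probes 0.0611 and the ordinary test per probe 0.134.

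SHMT1, the cytosolic counterpart of SHMT2, was read by 3 probes, of which 0 passed. Its bright probe (ILMN_1811933) stood at 9.0, 9.0 and 9.02 in siControl and at 9.20, 9.38 and 9.22 in siGRAMD1B. The normalized groups were separate, whereas the raw intensities overlapped (478, 552 and 618 against 643, 796 and 555). The log2 difference was 0.26 ± 0.10 (SE, 95% interval 0.05 to 0.47, limma adjusted p = 0.134), and it passed in 0 of 16 alternatives, with adjusted p between 0.0521 and 0.681. The dimmer SHMT1 probes, with siControl means of 6.81 and 6.28, differed by 0.02 and -0.05. The second of these lay at the level of the array median, so a change there would hardly be seen.

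MTHFD2, the mitochondrial dehydrogenase and cyclohydrolase that is low in most adult tissues and high in many tumours, stood lower without passing. It read 10.40, 10.06 and 10.33 in siControl, against 9.84, 10.00 and 10.00 in siGRAMD1B. The groups did not overlap, but siControl replicate 2 came within 0.1 of siGRAMD1B replicates 3 and 4, and the raw intensities overlapped. The log2 difference was -0.32 ± 0.11 (SE, 95% interval -0.55 to -0.09, limma adjusted p = 0.0899). It passed in 3 of 16 alternatives, namely without siControl replicate 2 (-0.42, adjusted p = 0.0304), with no background correction (-0.31, adjusted p = 0.0479) and on the deposited normalized table (-0.32, adjusted p = 0.0433).

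The other folate enzymes did not pass. MTHFD1L, which releases formate in mitochondria, read 10.58, 10.17 and 10.77 in siControl and 10.47, 10.48 and 10.37 in siGRAMD1B. Its siControl arrays were the most scattered of the 9 genes (SD 0.31), with siControl replicate 2 low as it was for MTHFD2, and the difference of -0.07 had a 95% interval of -0.34 to 0.20 (limma adjusted p = 0.837). MTHFD1, the cytosolic enzyme with several activities, read 8.35, 8.24 and 8.50 against 8.42, 8.36 and 8.20, with a difference of -0.04 (95% interval -0.26 to 0.18, limma adjusted p = 0.904). ALDH1L2, the mitochondrial formyltetrahydrofolate dehydrogenase, lay near the floor at 6.01, 6.20 and 6.18 against 5.93, 6.46 and 6.23. Its siControl mean of 6.13 lay under the filter value of 6.16, and its siGRAMD1B mean was 6.21. ALDH1L2 was thus tested only through its siGRAMD1B level, and the interval and p given for it carry that selection. Its siGRAMD1B arrays spread over the whole siControl range and beyond, and a change of ALDH1L2 was not detectable at this signal (difference 0.08, 95% interval -0.18 to 0.33, limma adjusted p = 0.808).

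Within each array the mitochondrial enzymes were set against their cytosolic counterparts, to ask whether the compartments changed unequally. The log2 difference SHMT2 minus SHMT1, relative to its siControl mean, was 0.13, -0.01 and -0.13 in siControl, against -0.54, -0.73 and -0.53 in siGRAMD1B. The groups were separate, and the balance shifted by -0.60 away from SHMT2 (exact 2-sided permutation p = 0.10, the smallest that 3 arrays against 3 allow, 0.150 after Benjamini-Hochberg adjustment over the 3 contrasts). MTHFD2 minus MTHFD1 shifted by -0.28, again without overlap (0.15, -0.08 and -0.07 against -0.48, -0.26 and -0.11, exact 2-sided permutation p = 0.10, adjusted 0.150). With each array left out in turn this shift ran from -0.37 to -0.18, the smallest without siGRAMD1B replicate 2. MTHFD1L minus MTHFD1 shifted by -0.03, with overlapping groups (exact 2-sided permutation p = 0.90, adjusted 0.900). This design cannot reach a p under 0.05 in such a test. The SHMT2 to SHMT1 shift ran from -0.66 to -0.54 when each array was left out in turn. Its size rests in part on the bright SHMT1 probe, since no difference was seen at the dimmer ones, where a change could be missed.

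**Figure D3:**
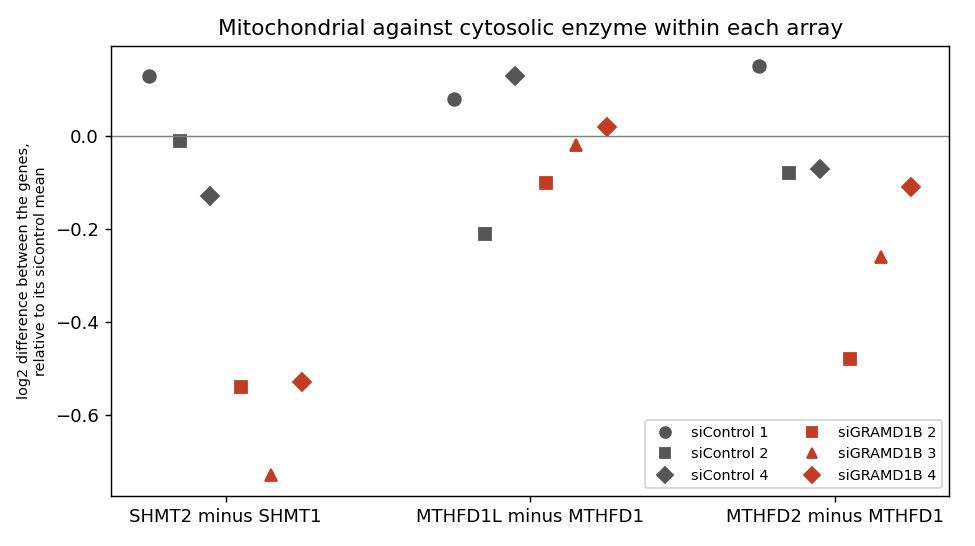
Log2 difference between a mitochondrial and a cytosolic enzyme within each array, relative to the siControl mean of that difference; grey symbols are siControl, red symbols siGRAMD1B, and shapes give the replicate number. The SHMT2 to SHMT1 values fall from between -0.13 and 0.13 in siControl to between -0.73 and -0.53 in siGRAMD1B, while MTHFD1L to MTHFD1 overlaps.

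The profiles of the genes that fell were compared over the 6 arrays by the root mean square distance between their values, each centred on its siControl mean. Among the other 8 genes, SHMT2 and MTHFD2 lay nearest to PSAT1 (distances 0.136 and 0.170), with 1.6% and 3.4% of all tested probes nearer still, and SHMT1 farthest (0.552). The named probes nearest to PSAT1 belonged to LRRC20 (0.020), MORF4L1 (0.043) and GPR65 (0.046), with differences of -0.50, -0.54 and -0.51. Nearest to SHMT2 were probes of GART, an enzyme of purine synthesis that uses formyl groups from the folate cycle (0.026), ECSCR (0.029) and HECTD3 (0.032). This GART probe fell by 0.37 (limma adjusted p = 0.0305), whereas the brighter GART probe differed by 0.01 (limma adjusted p = 0.972). Because values were centred on siControl, probes with like group differences lie near each other. The distances thus largely restate those differences over 6 arrays and are no separate support.

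Lists of 115 other genes of the pathway were examined with the brightest tested probe of each gene. Of 98 tested, 6 were lower, 2 were higher and 90 did not pass, or 6.12% lower and 2.04% higher, against 3.72% and 5.71% of all genes. Their median difference was -0.05.

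In the list for serine and glycine handling, 2 of 18 tested genes were lower, 0 were higher and 16 did not pass (median -0.08). Both that fell are sideroflexins, proteins of the inner mitochondrial membrane, and SFXN1 carries serine into mitochondria, where SHMT2 works. SFXN1 read 9.06, 8.82 and 9.11 in siControl and 8.58, 8.32 and 8.36 in siGRAMD1B, a difference of -0.58 ± 0.11 (SE, limma adjusted p = 0.00279). SFXN3 read 7.81, 7.94 and 7.93 against 7.19, 7.30 and 7.28, a difference of -0.64 ± 0.10 (SE, limma adjusted p = 4.40e-04). The groups of both genes were separate. SFXN3 passed in all 16 alternatives, and SFXN1 in all but the ordinary test per probe (adjusted p = 0.144). The relative SFXN2 was dim and differed by -0.01 (limma adjusted p = 0.985).

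Among folate carriers and folate enzymes 1 of 12 tested genes was lower, 0 were higher and 11 did not pass (median 0.11). The gene that fell was MTRR, which reactivates methionine synthase, at 10.25, 9.91 and 10.41 against 9.63, 9.78 and 9.74 (difference -0.47, limma adjusted p = 0.0204). This call was lost in 8 of 16 alternatives, among them those without siControl replicates 1 or 4 (adjusted p = 0.0833 and 0.0721) or siGRAMD1B replicates 2 or 4 (0.0941 and 0.0669). The raw intensities of the called MTRR probe overlapped (1106, 1010 and 1567 against 843, 1037 and 775). A dimmer tested MTRR probe differed by -0.25 with overlapping groups (limma adjusted p = 0.290). SLC25A32, the carrier of folate into mitochondria, differed by -0.32 with overlapping groups (limma adjusted p = 0.184). TYMS, which uses a folate-bound carbon unit to make thymidylate, differed by 0.22, also with overlap (limma adjusted p = 0.245), and MTHFD2L was not analysed here.

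In the methionine and transsulfuration list 1 of 16 tested genes was lower and 0 were higher (median -0.10). It was CBS, which joins serine to homocysteine, at 9.0, 8.87 and 9.08 against 8.53, 8.54 and 8.51 (difference -0.46, limma adjusted p = 0.00795). In purine synthesis 1 of 14 tested genes was lower and 0 were higher (median -0.07). It was PPAT, the amidotransferase that commits to the purine pathway, at 9.24, 9.09 and 9.52 against 8.66, 8.87 and 8.65 (difference -0.56, limma adjusted p = 0.00615). The groups of CBS and PPAT were each separate after normalization. In the raw intensities CBS was separate too, whereas PPAT overlapped (560, 584 and 860 against 458, 575 and 388). CBS lost its call with the offset of 16 (adjusted p = 0.0603), median centring (0.0599), the ordinary test (0.0852) and the replicate block (0.0756). PPAT lost its call with the offset of 16 (0.0703) and the ordinary test (0.199).

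In the list of ATF4 and amino acid response genes, by the brightest probe of each, 2 of 22 tested genes rose and 0 fell, while 20 did not pass (median 0.06). Those that rose encode the subunits of an amino acid transporter of the plasma membrane. SLC7A5 read 11.82, 11.83 and 11.93 in siControl and 12.61, 12.57 and 12.60 in siGRAMD1B (difference 0.73, limma adjusted p = 9.14e-05), and it passed in all 16 alternatives. SLC3A2 read 10.96, 11.00 and 11.02 against 11.32, 11.30 and 11.38 (difference 0.34, limma adjusted p = 0.0379), while its other probe differed by 0.10. The groups were separate at both genes, but SLC3A2 passed in only 7 of 16 alternatives. With 1 array left out, its call was kept without siControl replicate 4 (adjusted p = 0.0472) and lost without each of the other arrays (0.120 and 0.0734 without siControl replicates 1 and 2, and 0.104, 0.0873 and 0.142 without siGRAMD1B replicates 2, 3 and 4).

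ATF4 itself, whose activity is known to be set largely by translation of its mRNA, did not pass at its brightest probe (difference -0.17, limma adjusted p = 0.334). That probe read 13.74, 13.78 and 13.74 in siControl and 13.59, 13.60 and 13.55 in siGRAMD1B. Dimmer ATF4 probes fell by 0.47 (limma adjusted p = 0.00743) and 0.44 (limma adjusted p = 0.0443). After normalization the groups were separate at all 3 ATF4 probes, each with siGRAMD1B lower, as they were at 11.8% of all tested probes. These probes read 1 gene on the same 6 arrays. The raw intensities overlapped at the brightest probe (12272, 15439 and 14512 against 12168, 13160 and 10839) and were separate at the dimmer ones. Among 10 tested regulators named for the serine pathway 1 was lower and 0 were higher (median -0.10). It was EIF2S1, the alpha subunit of the initiation factor whose phosphorylation favours ATF4 translation, at 9.99, 10.08 and 10.01 against 9.36, 9.42 and 9.62 (difference -0.56, limma adjusted p = 0.00215, and 0.0968 by the ordinary test). MYC differed by -0.19 (limma adjusted p = 0.298) at its brighter probe. Of 7 tested genes of lower glycolysis, in which 3-phosphoglycerate is an intermediate, 0 were higher and 0 lower by limma. Of these, GAPDH and PGK1 act before 3-phosphoglycerate, and the others act after or beside it. The differences at the brightest probes lay between -0.24 and -0.01 (median -0.13), with PGAM1 and ENO1 both at -0.01. The other PGAM1 probe differed by -0.38 without passing (limma adjusted p = 0.0608). Dimmer GAPDH probes differed by -0.33 and -0.10, also without passing (limma adjusted p = 0.106 and 0.640).

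**Figure D4:**
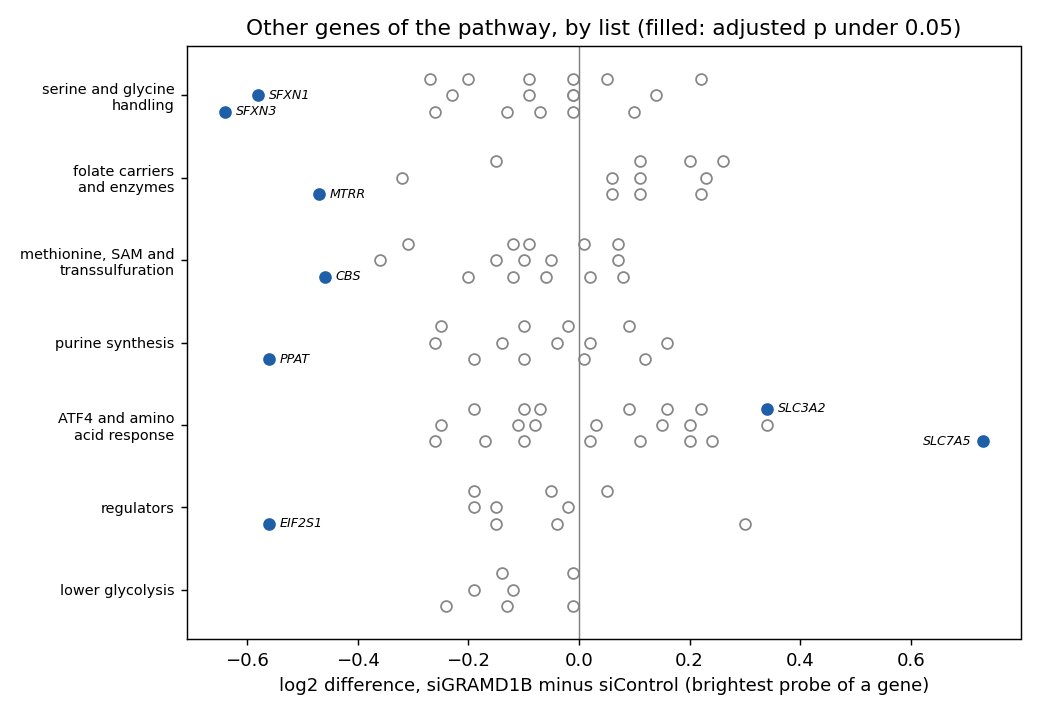
Log2 difference, siGRAMD1B minus siControl, of the brightest tested probe of each other pathway gene, in 7 lists; filled points have an adjusted p under 0.05 and are named, and vertical offsets within a list only separate points. SFXN3 at -0.64 and SFXN1 at -0.58 are the lowest values, and SLC7A5 at 0.73 is the highest.

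**Figure D5:**
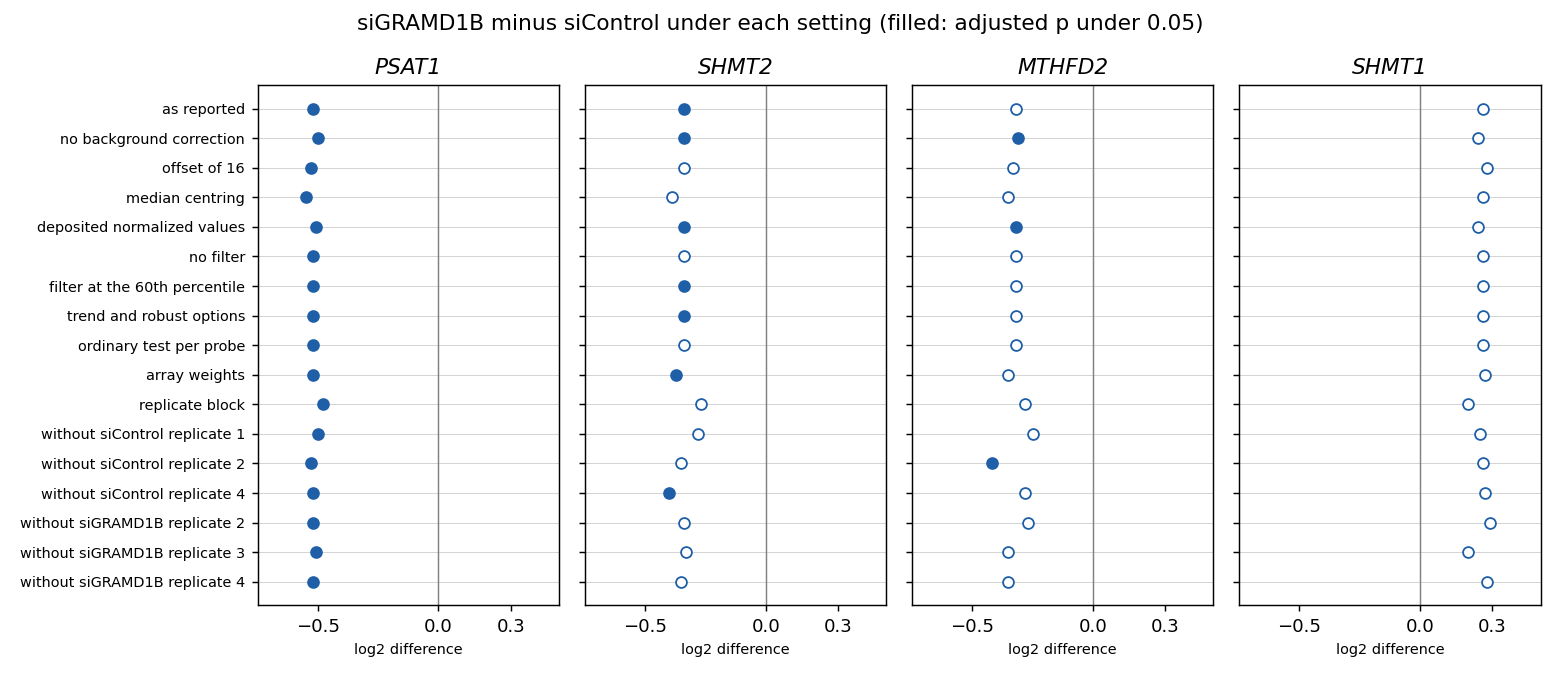
Log2 difference, siGRAMD1B minus siControl, of PSAT1, SHMT2, MTHFD2 and SHMT1 (brightest probes) in the reported setting and the 16 alternatives; filled points have an adjusted p under 0.05. PSAT1 is filled throughout, between -0.55 and -0.48, while SHMT2 keeps its sign and is filled in 6 of the 16 alternatives.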

How the data were processed

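Per the labels' protocols, biotinylated cRNA made from total RNA of the 6 samples was hybridised on Illumina bead arrays. The submitters' processing notes name BeadStudio. The deposited table of intensity values is linear and was not normalized between arrays. The header of that table is offset by 1 field against the values. Array names were realigned, and each column then ranked the probes as the same array did in the second table (Spearman's rho 1.00, at most 0.85 for other arrays). That second deposited table holds the authors' log2 values, normalized between arrays (median 6.86 in each) by a method not given in the sources used here, and served as an alternative. No detection p-values were given, so the background was corrected by normexp with an offset of 50 (limma 3.58.1, R 4.3.3), followed by quantile normalization and log2. The offset understates changes of dim probes. Probes above the 40th percentile of mean log2 values (6.16) were tested with lmFit and eBayes (2-sided, Benjamini-Hochberg over 28338 probes, threshold 0.05), without covariates. Gene symbols came from the platform annotation. The genes, partner lists and tests were chosen with earlier results of these data known. Named genes were the 9 enzymes, GRAMD1B, up to 5 called genes of each partner list with ATF4, MYC, TYMS, MTHFD2L and SLC25A32, and the 3 nearest profiles of each called enzyme. The filter and the limma test were tried on simulated log2 values with independent errors. Changes were added after normalization, so the background correction and quantile normalization were not tested. At each fold 50 probes were changed, far fewer in all than the 2010 called in the data, so the shares need not hold for these arrays. A share of 0.667 of fitted probes changed 1.5-fold was recovered, 0.872 at 2-fold and all at 3-fold and 4-fold. Smaller changes, such as those of PSAT1, SHMT2 and MTHFD2, were not simulated. Dim probes made to fall could drop below the filter and were then lost, so a fall of a dim probe can go unseen. The alternatives changed the background correction, normalization, filter, test and weights, added the replicate number as a block, or left out each array.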

Additional observations from a re-analysis of the deposited data

How the results depend on the processing

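PSAT1 kept its direction and its call under all 16 alternatives, and SHMT2, MTHFD2 and the bright SHMT1 probe kept their directions. The probes lower among the 9 enzymes, and the enzymes lower, went from 2 to 1 with the offset of 16, median centring, no filter, the ordinary test and the replicate block, where SHMT2 lost its call, and to 3, with MTHFD2 added, with no background correction and with the deposited normalized values. Partner genes higher and lower numbered 5 and 11 with no background correction, 6 and 11 with the deposited normalized values, and 1 and 3 with the offset of 16. Partner genes higher fell to 1 with median centring, no filter and the replicate block, and partner genes lower to 1 with the ordinary test. Over all probes 449 were higher and 234 lower with the offset of 16, 603 and 419 with median centring, 164 and 92 with the ordinary test, and 578 and 409 with the replicate block. With 1 array left out in turn, 667 to 1151 probes were higher and 450 to 1036 lower, 0 to 0 enzyme probes higher and 1 to 2 lower, and 1 to 3 partner genes higher and 5 to 7 lower.

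The replicate numbers 2 and 4 occur in both groups, but nothing in the labels says that they pair arrays, and the deviations of same-numbered arrays from their group means correlated at 0.02 and -0.15 across probes. With the number as a block, in which only these arrays inform the contrast, PSAT1 differed by -0.48 (adjusted p = 0.0472) and SHMT2 by -0.27 (adjusted p = 0.465). Differences near 0 changed sign in some settings without passing in any. With the block, the brighter PSPH probe was at -0.01, a dim SHMT1 probe (ILMN_2402463) at -0.06 and ALDH1L2 at -0.11. With arrays left out, the range was -0.06 to 0.10 for that PSPH probe, -0.10 to 0.03 for MTHFD1, -0.23 to 0.06 for MTHFD1L, -0.04 to 0.06 and -0.10 to 0.03 for the dimmer SHMT1 probes, and -0.14 to 0.03 for MTHFD1L minus MTHFD1. Signal limits ALDH1L2, GRAMD1B and the dimmer probes of PSAT1 and SHMT1.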

Other observations

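Several partner genes changed at a dimmer probe and not at the brightest. Of 47 further tested probes of 31 partner genes, 6 were lower and 1 was higher (limma adjusted p under 0.05, which 3.21% and 3.89% of all tested probes passed), from 5 genes of which 0 were called by their brightest probe. Besides GART and ATF4, they were MRI1, SPTLC1 and DHFR2, which, like GCSH, were named after their values were seen. MRI1, of the methionine salvage pathway, fell by 0.42 at one further probe (limma adjusted p = 0.0170) and by 0.38 at another (0.0200), and its brightest probe differed by -0.31 (0.0786). SPTLC1, a subunit of the enzyme that condenses serine with palmitoyl-CoA, fell by 0.40 at its dimmest probe (limma adjusted p = 0.0183), while its other 4 probes differed by between -0.33 and 0.01 and did not pass. DHFR2, a mitochondrial dihydrofolate reductase, rose by 0.38 at its dimmer probe (limma adjusted p = 0.0331) and differed by 0.23 at its brighter one (0.217), without overlap of the groups at either. GCSH, the carrier protein of the glycine cleavage system, differed by -0.27, -0.33 and -0.22 at its 3 probes, all without overlap and without passing (limma adjusted p = 0.114, 0.0839 and 0.273).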
